A study of Arabidopsis thaliana with 9 samples.

Results

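The genes described are UGT74B1 (AT1G24100), GTR1 (AT3G47960) and BGLU28 (AT2G44460), which stand for the synthesis, the transport and the breakdown of glucosinolates in Arabidopsis thaliana. They were taken by name, with earlier results of these data known. Each of the 3 genes was named by 1 probe set. In the whole series 13513 probe sets name a single gene and 22746 were tested. Expression was measured on 9 Affymetrix ATH1 arrays hybridised with RNA from whole 10-day-old seedlings of ecotype Col-0, 3 arrays from biological replicates in each of 3 groups. One group was wild type grown with solvent alone (1% DMSO), one was wild type to which hyperphyllin, a small molecule, had been given at 30 µM, again with 1% DMSO, and one was the amp1-13 mutant grown with 1% DMSO. All 3 groups grew in liquid half-strength Murashige and Skoog medium with 1% sucrose in 96-well plates at 26 °C under a daily cycle of light (16 h) and dark (8 h). AMP1 itself was not analysed here, so the genotype was not checked on the mutated gene, and amp1-13 is represented by a single allele. A compound-treated mutant group was not analysed here.

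Glucosinolates are sulphur-rich glucosides that plants of the cabbage order make from methionine, tryptophan or phenylalanine and use in defence. An amino acid, for methionine often lengthened first, is converted through an aldoxime to a thiohydroximate. The thiohydroximate is then glucosylated by UGT74 enzymes and sulphated, and the side chain may be modified afterwards. Plasma membrane transporters of the NPF family, GTR1 and GTR2, import intact glucosinolates into cells and are needed to load them into the phloem. Beta-glucosidases remove the glucose, which releases an unstable aglycone. The classical enzymes of this kind, the myrosinases, act on tissue damage, and BGLU28 is better known as a gene strongly induced by sulphur shortage and tied to glucosinolate turnover there.

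The values below are log2 RMA signals as deposited, and differences are log2 differences with their standard error (SE) from limma, with p-values adjusted by the Benjamini-Hochberg method over all 22746 probe sets and a threshold of 0.05. The spread was pooled over the 3 groups; with 3 arrays per group, precision is limited by their number. Wild-type DMSO replicate 2 stood apart from the other control arrays: its root mean square deviation from its group was 0.244 on the log2 scale, against 0.12 to 0.187 for the other 8 arrays. The array medians ran from 6.44 to 6.52. Below, a gene is called measured if a probe set names it alone in the annotation used. Of 5 shoot markers 3 were measured, and all were bright: Rubisco activase (RCA) lay between 12.09 and 13.32, the antenna gene LHCB4.1 between 12.30 and 13.24 and phosphoribulokinase (PRK) between 10.48 and 12.32. Of 6 root markers only the root hair expansin gene EXPA7 was measured, at 6.94 to 8.05, and it passed in no comparison. Of 5 seed markers only the storage protein gene PAP85 was measured, and it stayed between 3.63 and 3.90, below the 25th percentile of mean signal (4.39). The 3 shoot markers rose by 1.55- to 1.91-fold with hyperphyllin and by 1.52- to 2.90-fold in amp1-13, and on every array of both groups each lay above all control values. In such bulk samples fewer cells of a type and less RNA per cell cannot be told apart, and the part of tissue make-up in the differences below was not tested.

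UGT74B1 encodes the thiohydroximate S-glucosyltransferase that adds the glucose of the glucosinolate core. Its log2 signals were 9.26, 9.66 and 9.29 in wild type with DMSO, 10.11, 9.98 and 9.93 with hyperphyllin, and 9.30, 9.39 and 9.66 in amp1-13. All hyperphyllin arrays lay above all arrays of both other groups, while the controls and amp1-13 overlapped throughout. With hyperphyllin UGT74B1 rose 1.52-fold (log2 difference 0.60 ± 0.13 SE, adjusted p = 0.0101). In amp1-13 the log2 difference from wild type was 0.05 ± 0.13 SE (adjusted p = 0.836), with a 95% confidence interval of -0.25 to 0.35, which spans 1.19-fold lower to 1.28-fold higher. Set directly against amp1-13, UGT74B1 was 1.47-fold higher with hyperphyllin (log2 difference 0.55 ± 0.13 SE, adjusted p = 0.0424). That last call was near the threshold. Leaving out wild-type DMSO replicate 3 gave an adjusted p of 0.0621, and it was 0.135 without hyperphyllin replicate 1, 0.123 without hyperphyllin replicate 2 and 0.0684 without hyperphyllin replicate 3. It was 0.119 without amp1-13 replicate 1 and 0.168 without amp1-13 replicate 2. The control array that stood apart, replicate 2, had the highest control signal of UGT74B1, and without it the rise with hyperphyllin was 1.66-fold (adjusted p = 0.00137).

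GTR1 (NPF2.10) encodes a proton-coupled importer of glucosinolates. Its log2 signals were 7.93, 7.73 and 7.70 in wild type with DMSO, 9.82, 9.82 and 9.52 with hyperphyllin, and 9.34, 8.93 and 8.72 in amp1-13. The groups did not overlap, and the order was the same on every array: controls lowest, amp1-13 between, hyperphyllin highest. GTR1 rose 3.82-fold with hyperphyllin (log2 difference 1.93 ± 0.16 SE, adjusted p = 0.000134), and only 1.07% of the probe sets had a larger difference. In amp1-13 it rose 2.32-fold (log2 difference 1.21 ± 0.16 SE, adjusted p = 0.00144). The signal with hyperphyllin was 1.65-fold above that of amp1-13 (log2 difference 0.72 ± 0.16 SE, adjusted p = 0.0281). The lowest hyperphyllin array and the highest amp1-13 array were 0.18 apart on the log2 scale. This last difference missed the threshold without hyperphyllin replicate 1 (adjusted p = 0.0915), hyperphyllin replicate 2 (0.115), amp1-13 replicate 2 (0.125) or amp1-13 replicate 3 (0.0932).

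BGLU28 encodes a beta-glucosidase of glycoside hydrolase family 1 and moved in opposite directions in the compound and mutant groups. Its log2 signals were 10.12, 9.76 and 10.08 in wild type with DMSO, 8.64, 8.51 and 8.92 with hyperphyllin, and 11.12, 11.09 and 11.39 in amp1-13. The 3 groups were fully separate, with hyperphyllin below the controls and amp1-13 above them. BGLU28 fell to a level 2.45-fold lower with hyperphyllin (log2 difference -1.29 ± 0.14 SE, adjusted p = 0.000389) and rose 2.32-fold in amp1-13 (log2 difference 1.21 ± 0.14 SE, adjusted p = 0.000862). The direct difference between hyperphyllin and amp1-13 was 5.68-fold (log2 difference -2.51 ± 0.14 SE, adjusted p = 5.02e-05), and only 6 of the 22746 probe sets had a lower value in that comparison. Without wild-type DMSO replicate 2 the fall was 2.65-fold (adjusted p = 0.000173) and the rise 2.15-fold (adjusted p = 0.000579).

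**Figure D1:**
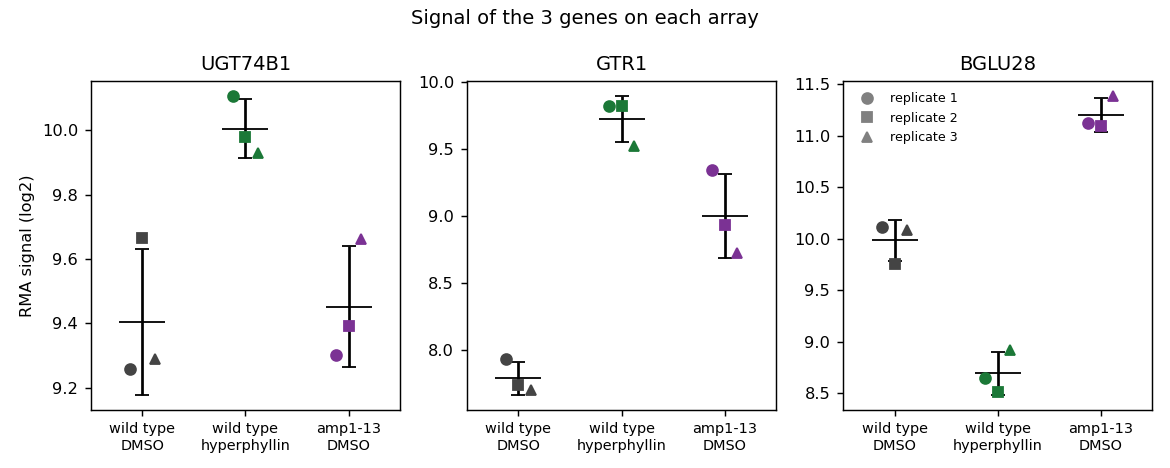
RMA signal (log2) of UGT74B1, GTR1 and BGLU28 on each of the 9 arrays; points are arrays, with a symbol for each replicate number, horizontal lines are group means and vertical bars are 1 SD (n = 3). UGT74B1 is highest with hyperphyllin, and its amp1-13 arrays overlap the controls. GTR1 rises in steps from controls (7.70 to 7.93) over amp1-13 to hyperphyllin. BGLU28 lies below the controls with hyperphyllin (8.51 to 8.92) and above them in amp1-13 (11.09 to 11.39).

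**Figure D2:**
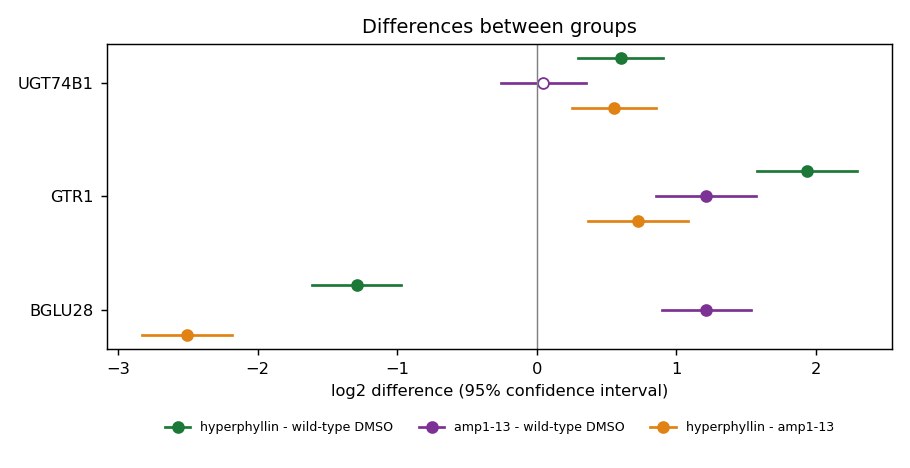
Log2 difference between groups (x axis) for each gene, with 95% confidence intervals from limma; filled points have an adjusted p under 0.05 and the open point does not. The 8 filled intervals leave out 0, and the open one, UGT74B1 in amp1-13 against wild type, runs from -0.25 to 0.35.

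All 3 genes passed the test with hyperphyllin, where 28.9% of all probe sets did. In amp1-13 against wild type 2 of the 3 passed, where 22.5% of all probe sets did, and between hyperphyllin and amp1-13 all 3 passed, where 6.33% did. Groups did not overlap in the same 3, 2 and 3 cases, against 39.5%, 35.3% and 26.9% of the probe sets. As the 3 genes were chosen with earlier results of these data known, these counts describe them and are no test of them as a set. Both effects against wild type share the control arrays, so their values are given side by side: for UGT74B1 a log2 difference of 0.60 with hyperphyllin and 0.05 in amp1-13, for GTR1 1.93 and 1.21, and for BGLU28 -1.29 and 1.21. All 3 genes were bright: the mean signal over the 9 arrays exceeded that of 91.0% of the probe sets for UGT74B1, 84.3% for GTR1 and 93.1% for BGLU28. The shares given here and below are over all probe sets, dim ones included. They were not taken among probe sets of like brightness, so they may be too low a baseline for these 3 genes.

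The other genes of the pathway were read from a list of 86 genes for chain elongation, core synthesis, side-chain modification, regulation, transport and breakdown. Only 15 of them were measured in the sense given above, and the 3 genes above are among these 15. As 8730 of the 22746 probe sets are unnamed here, other listed genes may be on the array under unnamed probe sets. With hyperphyllin 3 of the 15 were higher and 5 were lower, where 13.3% and 15.6% of all probe sets were; the median log2 difference was -0.10, against -0.03 over all probe sets. In amp1-13, 3 were higher and 1 was lower, where 10.1% and 12.5% of all probe sets were, with medians of 0.02 and -0.03. Between hyperphyllin and amp1-13, 2 were higher and 2 were lower, where 2.98% and 3.35% were. These counts include the 3 genes above, which were chosen with earlier results of these data known. Of the 12 others, 1 was higher and 4 were lower with hyperphyllin, and 1 was higher and 1 lower in amp1-13. Between hyperphyllin and amp1-13, 0 of these 12 were higher and 1 was lower. Among all 15, the count of falls with hyperphyllin was 3 when wild-type DMSO replicate 3, hyperphyllin replicate 1 or hyperphyllin replicate 2 was left out. The single fall in amp1-13, that of GSTU20, was lost, leaving 0, when wild-type DMSO replicate 3 or any one amp1-13 array was dropped, and dropping wild-type DMSO replicate 1 replaced it by MYC4 (adjusted p = 0.00732). Between hyperphyllin and amp1-13, 0 genes were higher without hyperphyllin replicate 1, hyperphyllin replicate 2 or amp1-13 replicate 2, 1 was higher without wild-type DMSO replicate 3, hyperphyllin replicate 3, amp1-13 replicate 1 or amp1-13 replicate 3, and 1 was lower without amp1-13 replicate 2.

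In synthesis, 4 of 20 listed core genes were measured. UGT74B1 was the only one of the 4 that rose with hyperphyllin, where 13.3% of all probe sets were higher. GSTU20, a glutathione transferase tied to the making of methionine-derived glucosinolates, had log2 signals of 9.75, 9.0 and 9.73 in the controls, 9.63, 9.07 and 9.20 with hyperphyllin, and 8.66, 8.63 and 8.87 in amp1-13. It fell to a level 1.71-fold lower in amp1-13 (log2 difference -0.77, adjusted p = 0.03), and all amp1-13 arrays lay below all controls. That call did not hold when wild-type DMSO replicate 1 (adjusted p = 0.103), wild-type DMSO replicate 3 (0.117) or any amp1-13 array (0.0501 to 0.097) was left out. Without wild-type DMSO replicate 2, the array that stood apart, the fall of GSTU20 was 2.02-fold (adjusted p = 0.00161). With array weights GSTU20 also passed as lower with hyperphyllin (log2 difference -0.45, adjusted p = 0.0357). AT2G31790, a core-list gene that the reference table gives by locus only, had log2 differences of -0.05 with hyperphyllin and 0.07 in amp1-13 and did not pass. CYP79A2, which starts the phenylalanine-derived branch, gave dim signals of 3.54 to 3.95. BCAT4, the aminotransferase that opens methionine chain elongation, did not pass either, at log2 differences of 0.20 with hyperphyllin (adjusted p = 0.351) and -0.23 in amp1-13 (adjusted p = 0.303).

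Among the side-chain genes, the largest difference belonged to AT2G25450, which the reference table names by locus only. Its log2 signals were 9.85, 9.51 and 9.26 in the controls, 11.37, 11.12 and 11.15 with hyperphyllin, and 11.69, 11.59 and 11.75 in amp1-13. Both other groups lay wholly above the controls. It rose 3.19-fold with hyperphyllin (log2 difference 1.67, adjusted p = 0.000161) and 4.4-fold in amp1-13 (log2 difference 2.14, adjusted p = 0.000112). AOP1, a 2-oxoglutarate-dependent dioxygenase gene of the AOP locus, fell to a level 1.5-fold lower with hyperphyllin (log2 difference -0.59, adjusted p = 0.00677), and its amp1-13 log2 difference was -0.21 (adjusted p = 0.249). AOP3, of the same locus, stayed between 4.92 and 5.06 on all arrays.

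Of the regulators, MYC3 and MYC4 encode jasmonate-signalling bHLH factors that act with the MYB factors of glucosinolate synthesis. MYC4 fell to a level 1.54-fold lower with hyperphyllin (log2 difference -0.63, adjusted p = 0.0249) and had a log2 difference of -0.51 in amp1-13 (adjusted p = 0.0623). The MYC4 call with hyperphyllin was lost without wild-type DMSO replicate 3 (adjusted p = 0.0951), hyperphyllin replicate 1 (0.0788) or hyperphyllin replicate 2 (0.0688), and when only the groups compared entered the fit (0.0533). In amp1-13 MYC4 passed in 4 alternatives, among them array weights (adjusted p = 0.00683). MYC3 passed in neither group, with a log2 difference of -0.15 in the hyperphyllin arrays (adjusted p = 0.509) and an adjusted p of 0.99 in amp1-13. AT1G04770, a gene placed on the regulator list and given by locus only in the reference table, had log2 signals of 9.75, 9.85 and 9.68 in the controls, 8.14, 7.41 and 8.31 with hyperphyllin, and 8.92, 9.72 and 9.85 in amp1-13. The hyperphyllin arrays lay below all others, and the controls and amp1-13 overlapped. AT1G04770 fell to a level 3.5-fold lower with hyperphyllin (log2 difference -1.81, adjusted p = 0.00153), and it was 2.92-fold lower with hyperphyllin than in amp1-13 (adjusted p = 0.0106, and 0.0642 without amp1-13 replicate 2).

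For transport, GTR2 (NPF2.11), the close relative that acts with GTR1, was measured as well. Its log2 signals were 9.05, 9.33 and 9.16 in the controls, 8.62, 8.75 and 8.89 with hyperphyllin, and 9.01, 9.34 and 9.31 in amp1-13. The hyperphyllin arrays lay below all others, opposite to GTR1. GTR2 fell to a level 1.34-fold lower with hyperphyllin (log2 difference -0.43, adjusted p = 0.0284), and its amp1-13 log2 difference was 0.04 (adjusted p = 0.84). The fall was lost without wild-type DMSO replicate 2 (adjusted p = 0.0547), wild-type DMSO replicate 3 (0.0741), hyperphyllin replicate 1 (0.1) or hyperphyllin replicate 2 (0.0785).

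For breakdown, PYK10, a beta-glucosidase of root endoplasmic reticulum bodies that can cleave indole glucosinolates, was among the brightest probe sets, at 13.03 to 13.75. Its log2 differences were 0.34 with hyperphyllin (adjusted p = 0.0732) and 0.22 in amp1-13 (adjusted p = 0.237). The classical myrosinase genes and PEN2 were not analysed here. From a list of 17 genes of sulphate uptake, assimilation and sulphur shortage, only APS3, an ATP sulfurylase gene, was measured. APS3 had log2 signals of 8.56, 8.65 and 8.82 in the controls, 8.93, 9.18 and 9.23 with hyperphyllin, and 9.53, 9.46 and 9.57 in amp1-13. It rose 1.8-fold in amp1-13 (log2 difference 0.84, adjusted p = 0.00129) and 1.35-fold with hyperphyllin (log2 difference 0.44, adjusted p = 0.0152), and the latter was lost without wild-type DMSO replicate 1 (adjusted p = 0.0536), hyperphyllin replicate 2 (0.0596) or hyperphyllin replicate 3 (0.0516).

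**Figure D3:**
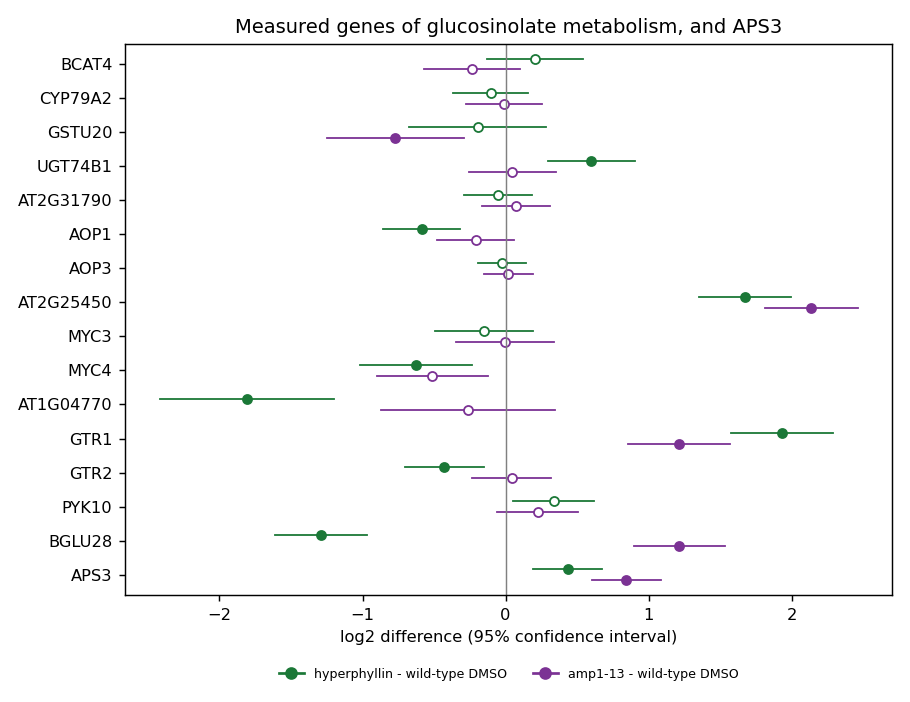
Log2 difference from wild-type DMSO (x axis) with 95% confidence intervals for the 15 measured genes of glucosinolate metabolism and APS3, ordered from elongation and core synthesis at the top to breakdown and sulphur assimilation at the bottom; filled points have an adjusted p under 0.05. GTR1 and AT2G25450 lie to the right in both comparisons, AT1G04770 lies far to the left with hyperphyllin alone, and BGLU28 has filled points on both sides of 0.

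Relatives of the 3 genes were compared by family. Of the UGT74 genes, UGT74D1, which glucosylates auxins and their oxidised forms, rose 2.51-fold in amp1-13 (log2 difference 1.32, adjusted p = 0.000309). Its log2 signals were 7.29, 7.13 and 7.22 in the controls, 7.72, 7.31 and 7.43 with hyperphyllin, and 8.50, 8.61 and 8.49 in amp1-13. UGT74D1 was thus high in amp1-13, where UGT74B1 was at control level, and its hyperphyllin log2 difference of 0.28 did not pass (adjusted p = 0.096). Between hyperphyllin and amp1-13 UGT74D1 was 2.07-fold lower (adjusted p = 0.00127). UGT74F1, a glucosyltransferase of salicylic acid, had log2 differences of -0.27 with hyperphyllin (adjusted p = 0.0617) and -0.02 in amp1-13 (adjusted p = 0.893).

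Of 20 beta-glucosidase genes with a BGLU symbol, 8 were higher and 3 lower with hyperphyllin in limma, where 13.3% and 15.6% of all probe sets were. In amp1-13, 4 were higher and 0 lower in limma, where 10.1% and 12.5% of all probe sets were. Between hyperphyllin and amp1-13, 3 were higher and 2 lower, where 2.98% and 3.35% were. At an unadjusted limma p under 0.05, 2 of the 20, BGLU25 and BGLU41, were lower in amp1-13. At that cut BGLU15 and BGLU19 were higher in amp1-13, beside the 4 genes already counted as higher there. The share of all probe sets at that unadjusted cut was not taken, so these counts have no baseline. In 9 of the 20 the mean signal lay below the 25th percentile, among them BGLU24, counted as higher, and BGLU41, counted as lower with hyperphyllin. BGLU28 was the one member of the family that passed against wild type in both comparisons with opposite signs. BGLU16 passed in both with the same sign (log2 differences 0.47 and 0.47, adjusted p = 0.0308 and 0.0373). Opposite signs were not confined to BGLU28. BGLU25 had a log2 difference of 0.47 with hyperphyllin (adjusted p = 0.0287) and of -0.35 in amp1-13, which did not pass (adjusted p = 0.0964). BGLU25 was 1.76-fold higher with hyperphyllin than in amp1-13 (adjusted p = 0.00814, and 0.0505 without amp1-13 replicate 2). The largest rises with hyperphyllin were in BGLU45 and BGLU46, whose enzymes hydrolyse glucosides of lignin precursors. BGLU46 had log2 signals of 6.87, 6.85 and 7.17 in the controls, 8.72, 8.84 and 8.16 with hyperphyllin, and 7.67, 7.12 and 7.09 in amp1-13, and rose 3.06-fold with hyperphyllin (adjusted p = 0.000772). BGLU45 rose 3.12-fold with hyperphyllin (adjusted p = 0.00373), from control signals of 4.80, 4.34 and 4.41. BGLU45 and BGLU46 were 2.8-fold and 2.43-fold higher with hyperphyllin than in amp1-13 (adjusted p = 0.0188 and 0.00766). The first of these missed the threshold without hyperphyllin replicate 2 (adjusted p = 0.0799), amp1-13 replicate 2 (0.0873) or amp1-13 replicate 3 (0.0728).

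Several beta-glucosidase calls were fragile. The number higher with hyperphyllin was 3 without control replicate 1, control replicate 3 or hyperphyllin replicate 1, and 5 without hyperphyllin replicate 2. It was 4 when only the groups compared entered the fit. Without probe sets below the 50th percentile of mean signal 5 were higher and 1 was lower. That filter removes BGLU24, BGLU33, BGLU40, BGLU41 and BGLU45 from the count, and the other genes called with hyperphyllin kept their calls under it. In amp1-13 the number higher was 1 without wild-type DMSO replicate 3 or amp1-13 replicate 2, and 2 without wild-type DMSO replicate 1, amp1-13 replicate 1 or amp1-13 replicate 3. In place of 0, 2 BGLU genes were lower in amp1-13 with array weights, and 1 was lower when only the groups compared entered the fit or when wild-type DMSO replicate 2 or hyperphyllin replicate 1 was left out. Between hyperphyllin and amp1-13 the number higher was 1 without amp1-13 replicate 2. The number lower was 1 without hyperphyllin replicate 2, hyperphyllin replicate 3 or amp1-13 replicate 2. It was also 1 without the probe sets below the 50th percentile, as that filter removes BGLU47. The call of BGLU40 with hyperphyllin (adjusted p = 0.0497) was lost in 12 of 16 alternatives, BGLU42 in 7 of 17 and BGLU16 in 6 of 17. Those of BGLU15, BGLU25 and BGLU33 were lost in 4 alternatives each. In amp1-13 BGLU16 was lost in 8 of 17 alternatives, BGLU44 in 4 of 17 and BGLU47 in 4 of 16. BGLU45, BGLU46 and BGLU28 kept their hyperphyllin calls in all alternatives tried for them. So did the dim BGLU24 and BGLU41, in 15 alternatives each, as the filters on mean signal drop both.

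BGLU28 lies in a run of beta-glucosidase genes in the reference gene order, next to BGLU15 on one side and BGLU29 on the other, with BGLU17 and PEN2 following. BGLU15, which is known to act on flavonol glucosides, had log2 signals of 7.97, 8.26 and 8.21 in the controls, 9.02, 9.01 and 8.47 with hyperphyllin, and 9.0, 8.47 and 8.47 in amp1-13. BGLU15 was higher with hyperphyllin by 1.61-fold (adjusted p = 0.0235), where BGLU28 was lower, and its log2 difference in amp1-13 was 0.50 (adjusted p = 0.087). The BGLU15 call was lost without wild-type DMSO replicate 1 (adjusted p = 0.0824), wild-type DMSO replicate 3 (0.0612), hyperphyllin replicate 1 (0.0822) or hyperphyllin replicate 2 (0.0865). BGLU29 stayed between 3.43 and 3.58, below the 25th percentile on all arrays. The probe sets of BGLU28, BGLU15 and BGLU29 carry no suffix for possible cross-hybridisation.

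**Figure D4:**
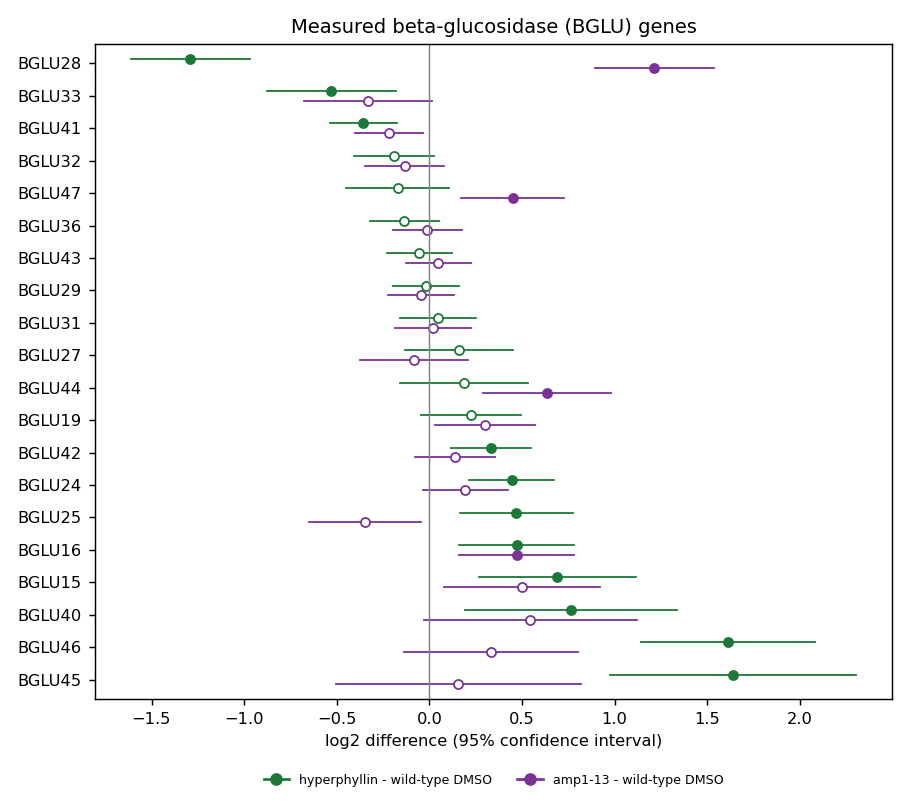
Log2 difference from wild-type DMSO (x axis) with 95% confidence intervals for the 20 measured BGLU genes, ordered by the difference with hyperphyllin; filled points have an adjusted p under 0.05. BGLU28 has the lowest value with hyperphyllin (-1.29) and the highest in amp1-13 (1.21), and BGLU45 and BGLU46 are the highest with hyperphyllin.

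The profiles most like each gene were found by the root mean square distance between log2 signals over the 9 arrays, each probe set centred on its mean, among 13285 other genes. For GTR1 the nearest were AT3G57760 (distance 0.12), B120 (0.13), AT5G35735 (0.15), AT1G80380 (0.16) and OPCL1 (0.17), a ligase gene of jasmonate synthesis, against a median distance of 0.85 over all genes. The choice by profile fixes the direction of these genes, so their differences are given as descriptions only: OPCL1 had log2 differences of 1.86 with hyperphyllin and 0.92 in amp1-13. For BGLU28 the nearest were AT3G05400 (0.21), AT1G57590 (0.27), AT5G19890 (0.35), the sugar efflux transporter gene SWEET10 (0.37) and AT1G12030 (0.37), against a median of 1.05. AT3G05400 had log2 differences of -1.16 with hyperphyllin and 1.19 in amp1-13, and SWEET10 of -1.11 and 0.86. For UGT74B1, whose profile varied less, the nearest were AT3G61550 (0.11), AT1G69360 (0.11), SETH3 (0.12), AT5G04160 (0.12) and AT3G52500 (0.12), against a median of 0.36. The distances are descriptions of these 9 arrays. No other listed glucosinolate gene was among the 5 nearest to any of the 3 genes. Only 12 of them were among the 13285 genes, so this absence says little about the pathway.

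**Figure D5:**
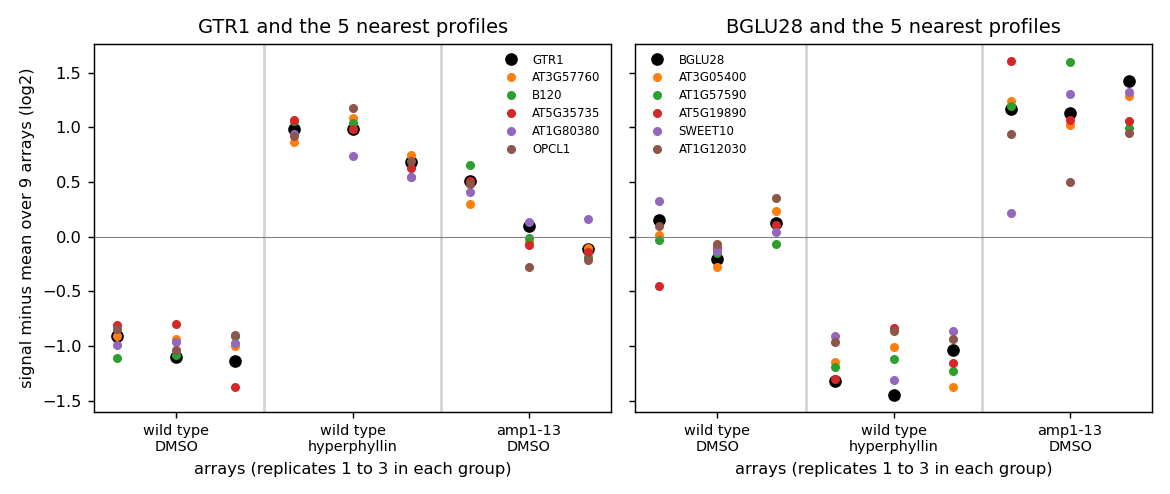
Signal minus the gene's mean over the 9 arrays (log2) for GTR1 (left) and BGLU28 (right), in black, with the 5 nearest profiles in colour; each column of points is 1 array, replicates 1 to 3 in each group from left to right. GTR1 and its neighbours stand lowest in the controls and highest with hyperphyllin, save for B120. For B120, amp1-13 replicate 1 (0.65) lies above hyperphyllin replicate 3 (0.55). BGLU28 and its neighbours stand lowest with hyperphyllin and highest in amp1-13, save for SWEET10 in amp1-13 replicate 1, which is at control level.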

How the data were processed

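RNA from 9 seedling samples was hybridised to Affymetrix ATH1 arrays. The deposited values are log2 signals; the submitters' processing notes name RMA, and which software ran it was not given in the sources used here. Their range, 2.77 to 14.32, shows the log2 scale. Of 22810 probe sets 64 controls were left out and 22746 were tested as deposited, with no filter. limma 3.58.1 in R 4.3.3 was used with 1 mean per group, 6 residual and 3.45 prior degrees of freedom, two-sided tests and Benjamini-Hochberg adjustment over all probe sets. Permuting 3 arrays against 3 reaches no p under 0.1. Names came from GEO's platform annotation: 13513 probe sets name 1 gene, 503 name several and 8730 are unnamed here. Loci came from RefSeq's TAIR10.1 table, and no coordinates are given because the files name no build. Where several probe sets name 1 gene, the brightest stood for it.

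The genes and lists were chosen with earlier results of these data known. By the naming rule, the 3 genes, listed pathway genes, relatives by symbol and the 5 nearest profiles were named. Marker levels carry no test of tissue make-up; a list of 7 tryptophan and camalexin genes had 0 measured members. Alternatives were leaving out probe sets whose mean signal lay under the 25th or the 50th percentile, quantile normalization again, centring on array medians, array weights, a trended and robust prior, a block for the replicate number, a fit of the compared groups only, and leaving out each array. The fit was tested on simulated data. Sequences were not used here.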

Additional observations from a re-analysis of the deposited data

How the results depend on the processing

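Of 153 checks of UGT74B1, GTR1 and BGLU28 over 17 alternatives and 3 comparisons, 139 kept direction and side of the threshold. GTR1 and BGLU28 kept both effects against wild type in all of them, as did UGT74B1 with hyperphyllin, where leaving out an array gave log2 differences of 0.53 to 0.73. The UGT74B1 difference in amp1-13, which did not pass, ranged from -0.056 to 0.18 when an array was left out, and it was -0.025 and -0.0088 when controls 1 and 3, respectively, were dropped and -0.056 when amp1-13 replicate 3 was. Between hyperphyllin and amp1-13, UGT74B1 ranged from 0.48 to 0.66 (highest adjusted p 0.168) and GTR1 from 0.58 to 0.89 (highest adjusted p 0.125) when an array was left out. Such fits have fewer arrays, and the cause of the lost calls was not tested. No clear pairing by replicate number was seen: deviations of same-numbered arrays correlated between -0.2 and 0.23, and in 6 of 18 cases the most correlated array of another group had the same number. With so few arrays, these values cannot settle whether the numbers pair them. With the replicate number as a block, UGT74B1 between hyperphyllin and amp1-13 had a log2 difference of 0.55 with adjusted p = 0.0744, and 1 glucosinolate gene was higher.

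The GTR2 difference in amp1-13 ranged from -0.021 (control replicate 1 left out) to 0.15 and was -0.019 without amp1-13 replicate 2; that of AT1G04770 ranged from -0.44 to 0.024, the latter without amp1-13 replicate 1. Of 670 checks of other named genes 570 kept direction and side, 77 lost a call, 20 gained one and 3 turned. With array weights, 4988 probe sets were higher and 5497 lower with hyperphyllin (3023 and 3544 without them), 4412 and 4951 in amp1-13 (2289 and 2835), and 1735 and 1688 between hyperphyllin and amp1-13 (677 and 762), with 4 glucosinolate genes higher and 5 lower in the last. In amp1-13, 2 glucosinolate genes were lower with the 50th percentile filter, 2 after centring and 2 with array weights. Leaving out an array gave 1921 to 4422 probe sets higher and 1960 to 4447 lower with hyperphyllin, 1295 to 3864 and 1250 to 4078 in amp1-13, and 197 to 1094 and 309 to 1133 between hyperphyllin and amp1-13. The glucosinolate genes lower with hyperphyllin numbered 3 to 5, those lower in amp1-13 0 to 1, and between hyperphyllin and amp1-13 0 to 3 were higher and 1 to 3 lower. The files give no detection call, so differences of dim genes such as CYP79A2 and BGLU29 are limited by signal over background.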
